A study of Mus musculus with 2 samples.

Results

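The genes of the receptors for serotonin, dopamine, noradrenaline and adrenaline, acetylcholine, glutamate and GABA were followed on a pair of mouse expression arrays. They were taken by name, from every spot that was not a control and whose gene name belonged to the Htr, Drd, Adra, Adrb, Chrm, Chrn, Grm, Gria, Grik, Grin, Gabr or Gabbr families. This rule used no measured value and took 95 genes of 35019, with 138 probes on 156 spots. Grina matched the letters of the rule and was kept, although it encodes a membrane protein of the stress response and is no receptor subunit.

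The cells were labelled GT1-7, an established mouse line derived from hypothalamic neurons that secrete gonadotropin-releasing hormone (GnRH), the peptide that drives the pituitary gonadotropes. The line came from a tumour that a viral T antigen under the Gnrh1 promoter had raised in a transgenic mouse. One group received the vehicle DMSO for 30 min and the other 50 nM GnRH for 30 min. Both were grown in the same serum-containing medium. There was 1 array per group, so no difference had a replicate check and no test was made. The description field of both samples names another cell line and agent, and the groups were therefore taken from the treatment labels. The labelled cell type was checked with fixed markers, beside the 60.6% of all genes that were well above background on both arrays. Of 7 markers of GnRH neurons 5 were, while Gnrh1, which defines that cell, and Six6 were so on neither array. Among those 5, Kiss1r (81.9 and 83.4), Otx2 (80.2 and 53.2) and Dlx5 (21.7 and 33.4) had low signals on their probes. Isl1 (2457 and 2647) and Gal (1534 and 1531) had higher ones. Of 11 general neuronal markers 9 were measured, among them Syp (35333 and 33688), Tubb3 (22842 and 25126) and Nefl (11441 and 12310). Stmn2 was well above background on neither array. Rbfox3, at 14.1 and 15.6, was so on the GnRH array only. Of 6 gonadotrope markers 5 were, with signals of 80508 and 74200 for Cga and 33412 and 30558 for Nr5a1. Pitx1 had 48204 and 46990, and Gnrhr had 14861 and 14583. Lhb was dim, at 71.5 and 77.0, and Fshb was well above background on neither array. Of the glial markers, 5 of 6 were measured for oligodendrocytes and 3 of 6 for astrocytes. The markers were thus mixed. Gnrh1, Six6, Cga, Nr5a1, Pitx1, Stmn2 and Rbfox3 went against the label, whereas Isl1, Gal and the 9 measured neuronal markers did not. The cells are called here by their label only.

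The receptors followed here are of contrasting build. G-protein-coupled receptors change second messengers, with Gs raising cyclic AMP, Gi lowering it and Gq raising calcium through phospholipase C. Ligand-gated channels are pentamers or tetramers of subunits and pass ions within milliseconds. GnRH neurons are known to receive GABA, glutamate and monoamine inputs, and the GnRH receptor itself is coupled to Gq and switches on immediate early genes.

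Those immediate early genes checked the arrays. Fos had a signal of 114 with vehicle and 7182 with GnRH, a log2 difference of 5.98 ± 0.07. Egr1 had 73.5 and 26015, a log2 difference of 8.47 ± 0.22. Gnrhr, the receptor for the added hormone, had 14861 and 14583, a log2 difference of -0.03 ± 0.20. Signals here are the scanner's processed intensities, with those of the GnRH array brought to the vehicle array's 75th percentile. Each ± combines, over both arrays, the errors that the scanner software gave for the spots of a probe. It shrinks with the number of spots, so the ± of Fos is not comparable with that of a probe printed once. For bright spots it mostly repeats a fixed multiplicative setting of 0.1 and holds nothing of the spread between cultures. Differences are GnRH minus vehicle.

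Among the receptor genes measured on both arrays, 1 passed a fold threshold between vehicle and GnRH cells. Of the 95, 50 were well above background on both arrays, which is 52.6% against 60.6% of all genes. None of the 50 was at least 2-fold higher in the GnRH array, where 0.311% of all measured genes were. At least 2-fold lower were 1 of the 50, Gabrr1, and 0.132% of all. At the looser fold of 1.5, none of the 50 was higher, against 1.19% of all genes, and Gabrr1 again was the single one lower, against 0.881%. In either direction this was 1 of the 50, near the 2.07% of all measured genes. The median log2 difference of the 50 was -0.03, beside -0.01 over all 21219 measured genes, and 22 lay above 0 and 28 below. The differences of 39 of the 50, or 78%, were smaller than their own scanner error, a lower share than the 85.9% of all measured genes. These shares were not matched for signal. Among genes of like signal, 48 of the 50 lay inside the central 95%.

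**Figure D1:**
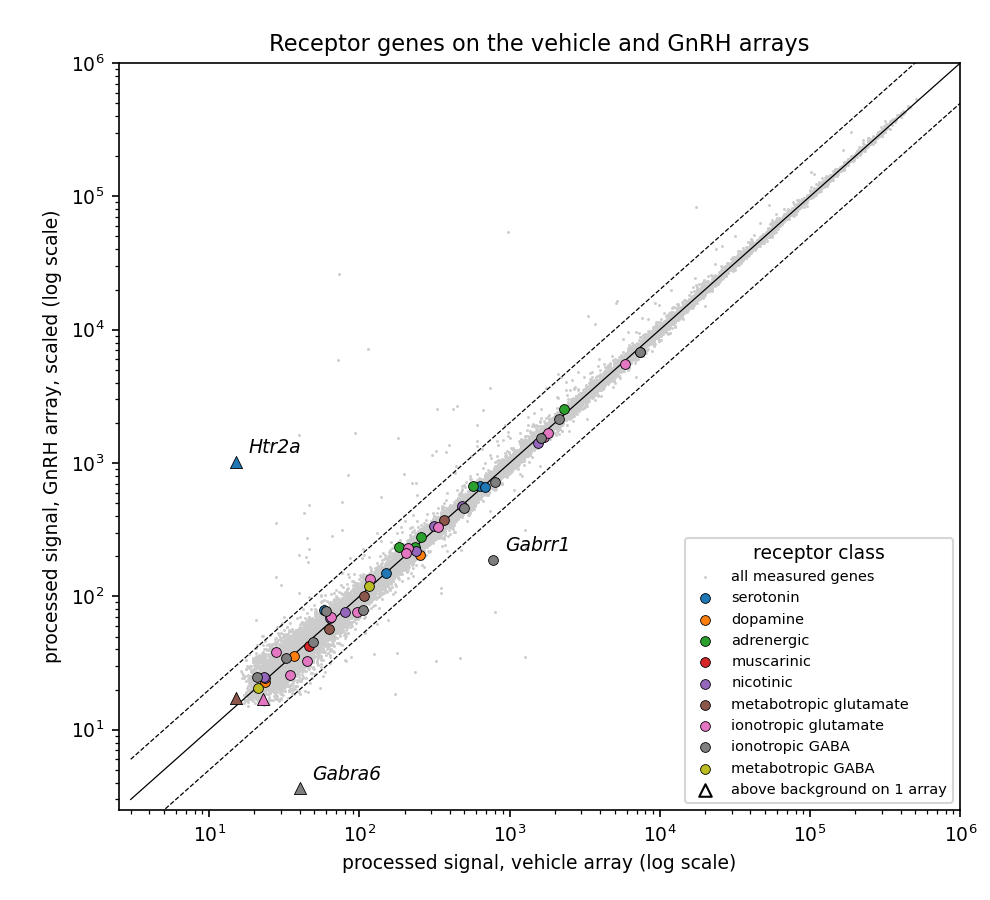
Processed signal of each gene on the vehicle array (x axis) and on the GnRH array after scaling (y axis), both in scanner intensity units on log axes; grey points are all 21219 measured genes, coloured circles the 50 receptor genes above background on both arrays, triangles the 4 above background on 1 array, the solid line equality and the dashed lines 2-fold. The circles other than Gabrr1 (770 against 188) lie between the dashed lines, and Htr2a and Gabra6 lie off them among the triangles.

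A further 4 receptor genes passed the background mark on 1 array only. Htr2a and Grm4 did so on the GnRH array, and Gabra6 and Gria1 on the vehicle array. For these a lower bound was used, the brighter signal divided by whichever was higher on the other array, the gene's own signal or the lowest signal marked well above background there. Htr2a was at least 62.8-fold higher in the GnRH array and Gabra6 at least 2.66-fold lower. Bounds of at least 2-fold were held by 0.486% of the 13800 genes not measured on both arrays in the direction of Htr2a, and by 0.5% in that of Gabra6. Grm4, a Gi-coupled glutamate receptor, had 15.04 and 17.3, a bound of 1.06-fold. Gria1, an AMPA receptor subunit, had 22.8 and 16.9, a bound of 1.35-fold. Both of the last lay at the edge of detection on their arrays.

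Htr2a, Gabrr1 and Gabra6, the receptor genes past 2-fold, each had 1 probe printed once. All 3 spots lay inside stretches of the array where neighbouring spots differed together, and no other member spot did. Such a stretch was taken as at least 4 connected spots, widened by 2 spots. Each had neighbours within 2 rows and 2 columns whose median log2 difference was at least 0.3 in size. Lone spots past that limit were counted as inside too. In all, 608 of the 59305 spots that were not controls, or 1.03%, and 3 of the 156 member spots, or 1.92%, were inside. Around the other 153 member spots the neighbour medians ran from -0.18 to 0.07. Of all genes, 21 of the 66 that were at least 2-fold higher, 14 of the 28 lower, 40 of the 67 with a 2-fold bound after GnRH and 40 of the 69 with one after vehicle also lay inside. The part of these stretches in the differences of the 3 receptors was not tested.

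The 3 probes are shown because every large receptor difference rests on them; each line gives the first 30 of 60 bases, 5′ to 3′, as deposited, with the probe's mm9 position. Whether the positions fall in an exon or a UTR was not analysed here.
Htr2a, chr14:75106454-75106513, plus strand: agaaaccgggctgccatgttgttgatgggt
Gabrr1, chr4:33250489-33250548, plus strand: tgtcctatagtcactgttgcctgcctttcc
Gabra6, chr11:42120087-42120146, minus strand: tgcatatgtacatagctttagttatgctgc

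Htr2a encodes a Gq-coupled serotonin receptor. Its spot, in row 22 and column 147, had a signal of 15.1 with vehicle, not well above background, and 1024 with GnRH. Its 22 neighbours belong to other genes and transcripts. Counted on their signals, spots below background included, 10 of them were at least 2-fold higher in the GnRH array and 0 lower, with a median log2 difference of 0.78. Among them Tbx19, a pituitary transcription factor, went from 8.08 to 1119, the vomeronasal receptor gene Vmn1r40 from 4.38 to 497 and the odorant receptor gene Olfr1095 from 7.53 to 451, each from a vehicle signal under 16.3, the lowest that was well above background there. The 6 neighbours with a signal of at least 2000 on both arrays had log2 differences from -0.19 to 0.13. Mif (-0.19) and Anapc11 (-0.07) are examples.

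Local background beside the Htr2a spot measured 66 with vehicle and 99 with GnRH, where the array medians were 69 and 70. Only 0.00337% of the spots of the GnRH array had a local background as high. Its neighbours had backgrounds of 65 to 68 with vehicle and 76.5 to 101 with GnRH. The software marked the local background on the GnRH array as not uniform for the Htr2a spot and 11 of its neighbours, and as a population outlier for the Htr2a spot and all 22. The Htr2a probe shared no run longer than 7 bases with any neighbour's probe.

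Gabrr1 encodes a rho subunit, which forms GABA-gated chloride channels best known from the retina. Its spot, in row 27 and column 6, had 770 with vehicle and 188 with GnRH, a log2 difference of -2.03 ± 0.21. Here the vehicle array was the bright one for the neighbours too. Of 22 neighbours, 10 were at least 2-fold lower after GnRH and 1 higher, with a median of -0.60. Among the lower ones were Olfr148 at 911 and 3.66 and Arhgef5 at 740 and 3.65, both below background after GnRH. Of the 8 neighbours with a signal of at least 2000 on both arrays, Hmgn1 (0.03) and Sqstm1 (0.05) lay near 0, Bcdin3d was the lowest at -0.06 and Ccni the highest at 1.66. Ttc14, diagonally next to the spot, had 1272 and 317, a log2 difference of -2.01, and Ppp2r5e had -2.44.

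Beside the Gabrr1 spot the local background was 103 with vehicle and 70 with GnRH, and 0.00674% of the vehicle array's spots had one as high. Its neighbours had 71 to 106 with vehicle and 66 to 71 with GnRH. On the vehicle array the background was marked as not uniform for this spot and 8 neighbours, and as a population outlier for this spot and 21 neighbours. The longest run of bases shared with a neighbour's probe was 9. Relative to the neighbour median the Gabrr1 difference was -1.43, past 2-fold. That median included the bright neighbours near 0. The 7 neighbours with a signal under 100 on the GnRH array ran from -7.96 to -3.40, each further below 0 than Gabrr1. With spots inside such stretches left out, Gabrr1 and the bounds of Htr2a and Gabra6 had no value, and the 49 receptor genes then measured ran from -0.45 to 0.47 with none past 1.5-fold.

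Gabra6 encodes a GABA-A subunit known from cerebellar granule cells. Its spot, in row 45 and column 7, had 40.0 with vehicle and 3.66 with GnRH. Of 23 neighbours 9 were at least 2-fold lower and 0 higher, with a median of -0.25. As this was under the limit of 0.3 in size, the Gabra6 spot lay inside through the widening. It belonged to the same stretch as the Gabrr1 spot. The 5 neighbours with a signal of at least 2000 on both arrays ran from -0.07 to 0.10. In contrast to the other two, the local background was 66 on both arrays and carried no mark. The longest shared run of bases was 7.

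**Figure D2:**
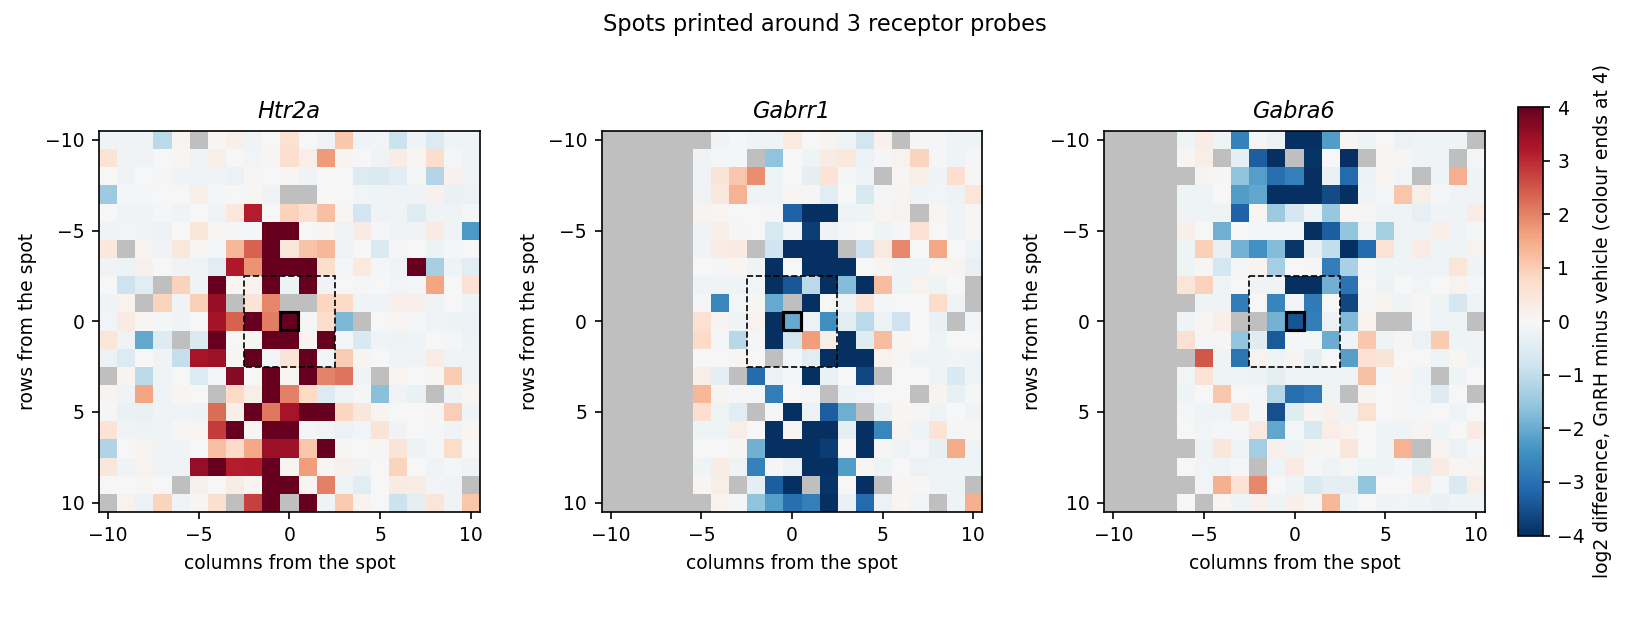
Log2 difference (GnRH minus vehicle, colour) of the spots up to 10 rows and 10 columns (axes, in spots) from the probes of Htr2a, Gabrr1 and Gabra6, which sit in the small black squares; dashed squares hold the neighbours within 2 rows and columns, and grey cells are controls, removed spots or lie off the array. Red spots crowd around Htr2a and blue ones around Gabrr1 and Gabra6, with paler spots between them; spots below background are drawn at their signals.

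The remaining receptors are described by class, beginning with those coupled to G proteins. The serotonin receptors had 4 of 14 genes measured on both arrays, with a median log2 difference of 0.03. Htr4, a Gs-coupled receptor, had 57.8 with vehicle and 79.5 with GnRH, a difference of 0.46 ± 0.24. This exceeded the scanner error but not 1.5-fold, and relative to its neighbours it was 0.60. The Gq-coupled Htr2c had 638 and 668, a difference of 0.07 ± 0.20, and Htr3a, the serotonin-gated cation channel, had 687 and 663, a difference of -0.05 ± 0.20. Htr1d, which couples to Gi, had 151 on each array. Besides Htr2a, the other 9 were not well above background on either array, namely Htr1a, Htr1b, Htr1f, Htr2b, Htr3b, Htr5a, Htr5b, Htr6 and Htr7.

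**Figure D3:**
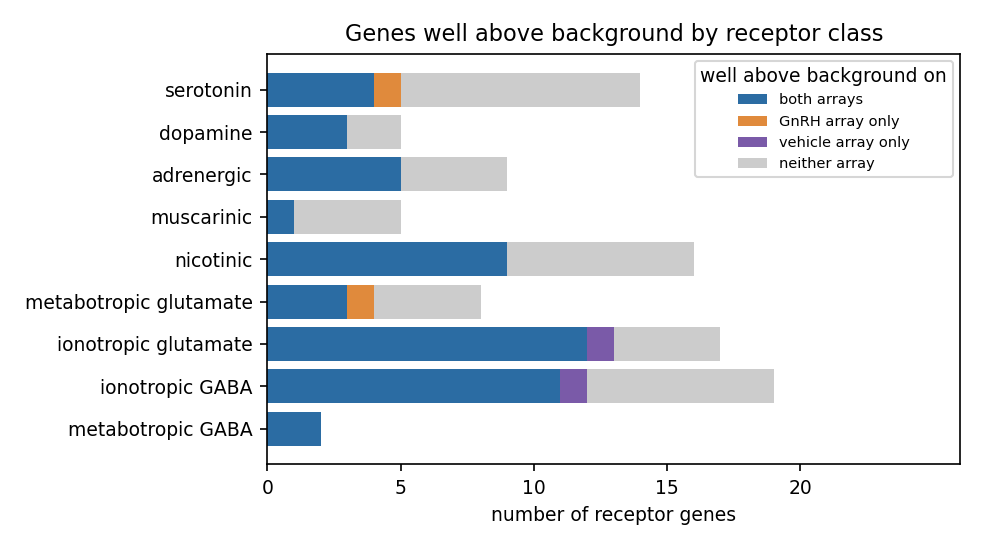
Number of receptor genes (x axis) in each class (y axis) that were well above background on both arrays, on the GnRH array only, on the vehicle array only or on neither. Metabotropic GABA receptors had both genes measured, and muscarinic receptors 1 of 5.

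Dopamine receptors were measured for the D2-like, Gi-coupled genes, all 3 of them, and for neither D1-like, Gs-coupled gene, Drd1a (Drd1 in RefSeq) and Drd5. Drd4 had 254 and 205, a difference of -0.31 ± 0.21, from a probe at chr7:148480683-148480742 of mm9. Drd2 had 36.7 and 35.7 (-0.04 ± 0.29) and Drd3 had 23.4 and 22.7 (-0.05 ± 0.36). Of these 3, Drd4 was the one whose difference exceeded the scanner error.

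All 5 measured adrenergic receptor genes lay above 0, with a median of 0.16, where 10072 of the 21219 genes measured did and where all 3 measured dopamine receptors lay below. Adrb1, the Gs-coupled beta receptor of the heart, had 183 and 233, a difference of 0.35 ± 0.21, from a probe at chr19:56799215-56799274 of mm9. A second Adrb1 probe, at chr19:56797242-56797301, had 83.2 and 86.1, a difference of 0.05 ± 0.22. Adra1b, coupled to Gq, had 2283 and 2558 (0.16 ± 0.20), and the Gi-coupled Adra2a had 255 and 280 (0.13 ± 0.21). Adra2b had 233 and 235, a difference of 0.01 ± 0.21 that turned below 0 under the alternative with median scaling. Adra1a, Adra1d, Adra2c and Adrb3 were not well above background on either array. None of the 5 differences reached 1.5-fold, and 3 were within the scanner error.

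Muscarinic acetylcholine receptors were measured through Chrm4, which couples to Gi and had 45.9 and 42.6, a difference of -0.11 ± 0.28. Chrm1, Chrm2, Chrm3 and Chrm5 were not well above background. Among the metabotropic glutamate receptors the Gq-coupled Grm5 had 107.2 and 101 (-0.08 ± 0.22), with 22.2 and 24.9 (0.17 ± 0.42) on another Grm5 probe. Grm2, a Gi-coupled receptor of nerve endings, had 365 and 376 (0.04 ± 0.21). Grm3, Grm6, Grm7 and Grm8 were not well above background. The GABA-B receptor works as a pair of Gabbr1, which binds GABA, and Gabbr2, which engages the G protein. Gabbr1 had 115 and 120 (0.07 ± 0.21) and Gabbr2 had 21.2 and 20.6 (-0.04 ± 0.38). All of these lay within the scanner error.

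The nicotinic receptors, cation channels opened by acetylcholine, had 9 of 16 genes measured, all with differences within the scanner error, from -0.13 to 0.11. The muscle-type subunits were split. Chrna1, which carries the agonist site, had 312 and 335 (0.10 ± 0.21), Chrnb1 had 23.3 and 24.9 (0.10 ± 0.37) and Chrnd had 7397 and 6792 (-0.12 ± 0.20). The fetal and adult partners Chrng and Chrne were not well above background on either array. Chrna4 and Chrnb2 together form the main nicotinic receptor of the brain. Chrna4 had 238 and 218 (-0.13 ± 0.21) and Chrnb2 had 1534 and 1415 (-0.12 ± 0.20). Chrna2 (479 and 474), Chrna6 (23.6 and 24.5), Chrna9 (64.2 and 69.2) and Chrnb4 (79.5 and 76.0) completed the measured set. Chrna3, Chrna5, Chrna7, Chrna10 and Chrnb3 were not well above background. One of the Chrna7 probes was printed 10 times, with 3.26 to 4.48 after vehicle and 2.99 to 4.05 after GnRH, and none of its spots passed the mark.

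Ionotropic glutamate receptors had 12 of 17 genes measured, with a median of -0.04 and a range from -0.45 to 0.47. Within the scanner error lay 8 of the 12 (66.7%, against 85.9% of all genes, not matched for signal). Grin2b, a glutamate-binding subunit of the NMDA receptor, had 27.7 and 38.5, a difference of 0.47 ± 0.33, from a probe at chr6:135681653-135681712 of mm9. Grin1, the subunit that all NMDA receptors need, had 64.5 and 69.6, a difference of 0.11 ± 0.23. The glycine-binding Grin3a (210 and 229) and Grin3b (205 and 213) stood at 0.12 and 0.06, and Grin2a, Grin2c and Grin2d were not well above background.

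Among the kainate receptor subunits, Grik2 had 44.9 and 32.9, a difference of -0.45 ± 0.29, from a probe at chr10:49243534-49243593 of mm9. Without background correction the Grik2 difference was -0.08. Grik3 had 118 and 135 (0.20 ± 0.21), Grik4 had 333 and 330 (-0.01 ± 0.21) and Grik5 had 1803 and 1694 (-0.09 ± 0.20), and Grik1 was not well above background. The AMPA receptor subunits measured were below 0 on their brightest probes. Gria2, the subunit that limits calcium entry, had 34.2 and 25.8 (-0.41 ± 0.32), Gria3 had 95.6 and 76.3 (-0.33 ± 0.22) and Gria4 had 1692 and 1573 (-0.11 ± 0.20). Without background correction the Gria2 difference was -0.06, and another Gria4 probe stood above 0. Grina had 5833 and 5531 (-0.08 ± 0.20).

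The GABA-gated chloride channels had 11 of 19 genes measured, with a median of -0.10. Most channels of this kind pair alpha with beta subunits and add a gamma or delta. Of the alpha subunits, Gabra4 had 106.1 and 79.6, a difference of -0.42 ± 0.22 from a probe at chr5:71961055-71961114 of mm9, or -0.19 without background correction. Gabra2 had 20.8 and 24.8 (0.25 ± 0.36). The beta subunit Gabrb2 (498 and 461) stood at -0.11 ± 0.20. Gabre, an epsilon subunit, had 59.4 and 78.1, a difference of 0.39 ± 0.24, from a probe at chrX:69502367-69502426 of mm9. Gabrd, found in channels outside synapses, had 32.3 and 34.3 (0.09 ± 0.28), and Gabrg3 had 49.0 and 45.6 (-0.10 ± 0.26).

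The rho subunit Gabrr2 had 2131 and 2150, a difference of 0.01 ± 0.20, while its relative Gabrr1 was at -2.03. Not well above background were Gabra3, Gabra5, Gabrb1, Gabrg1, Gabrp, Gabrq and Gabrr3. For Gabrg1 one probe was printed 10 times, with signals from 6.78 to 15.8 after vehicle and from 9.22 to 18.0 after GnRH. The spot differences of this dim probe spread from -0.65 to 0.73, with an SD of 0.42 over 10 spots of the same RNA pair. After vehicle 0 of the 10 passed the background mark, and after GnRH 3 did.

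**Figure D4:**
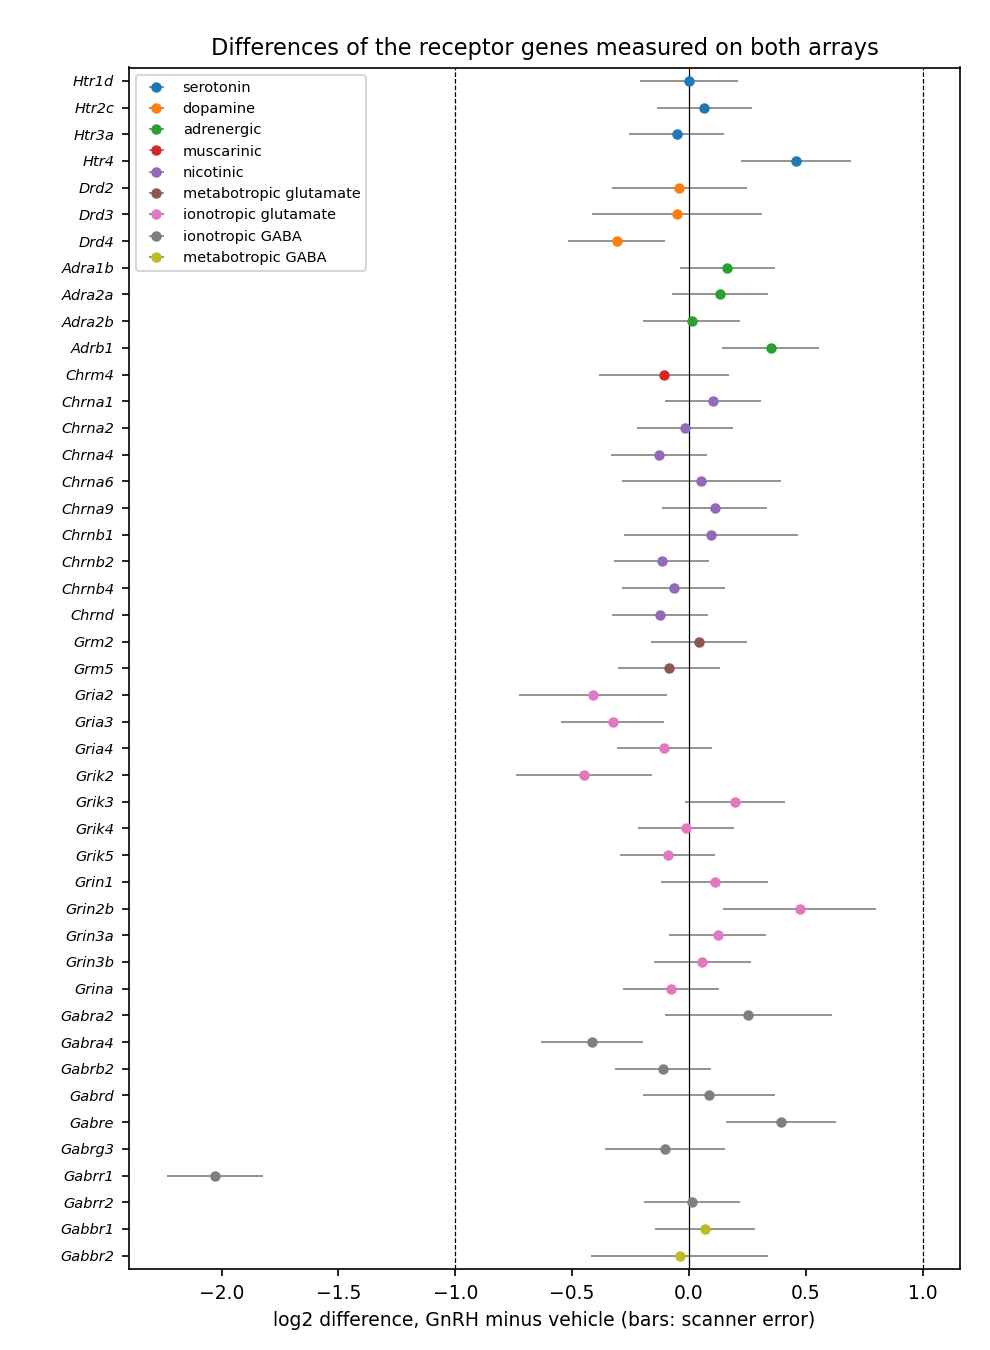
Log2 difference (x axis, GnRH minus vehicle) of 45 of the receptor genes measured on both arrays (y axis), coloured by class; bars are the scanner error, the solid line is 0 and the dashed lines are 2-fold. Gabrr1 lies at -2.03, and the others shown lie between -0.45 (Grik2) and 0.47 (Grin2b).

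The widest receptor differences after Gabrr1 came from dim spots, and differences over all genes also spread more at low signal. Genes were divided by their mean signal into 4 bands of like size. In the lowest band, with signals from 16.4 to 115, 6.22% of all genes were at least 1.5-fold different in either direction, and in the highest 0.339%. The central 95% of all genes ran from -0.62 to 0.63 in the lowest band, which held 21 of the 50 receptors, all 21 inside that range. In the next band it ran from -0.31 to 0.33 and held 18 of 20 receptors, the exceptions being Adrb1 at 0.35 and Gabrr1. The upper bands held 6 and 3 receptors, all inside the ranges there. Of the 3 in the highest band, Chrnd was at -0.12 and Grina at -0.08. In all, 48 of 50 receptors lay inside the central 95% of their band and 23 of 50 inside its central 50%.

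Several receptors could be read on more than 1 probe. Of 35 receptor genes with over 1 probe, 7 had every probe above background on both arrays, 16 had some and 12 had none. In 9 genes over 1 probe gave a difference, and the gap between highest and lowest was 0.14 for Gabbr1 and 0.43 for Chrna1. Gria4, on the AMPA receptor, had -0.11 ± 0.20 on one probe and 0.24 ± 0.21 (236 and 279) on the other, and Chrna4 had -0.13 ± 0.21 and 0.21 ± 0.21 (114 and 131). Chrna1 had 0.10 ± 0.21 and, on a dim probe with 20.7 and 16.6, -0.32 ± 0.42. Grin3a had 0.12 ± 0.21 and -0.04 ± 0.24. In 7 of these genes, but not in Adrb1, the probes lay on opposite sides of 0.

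Gabra2 shows how far readings of nearly the same target lay apart at low signal. Its probes overlap on chr5:71352306-71352334, minus strand, and share the run of 29 bases in capitals.
Gabra2, shared run: TCAGCTCACTTCAATCATTGGAAACTACC
One probe had 20.8 and 24.8, a difference of 0.25 ± 0.36. The other had 21.7 and 21.5, a difference of -0.01 ± 0.43. The gap of 0.27 between them was smaller than either error.

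**Figure D5:**
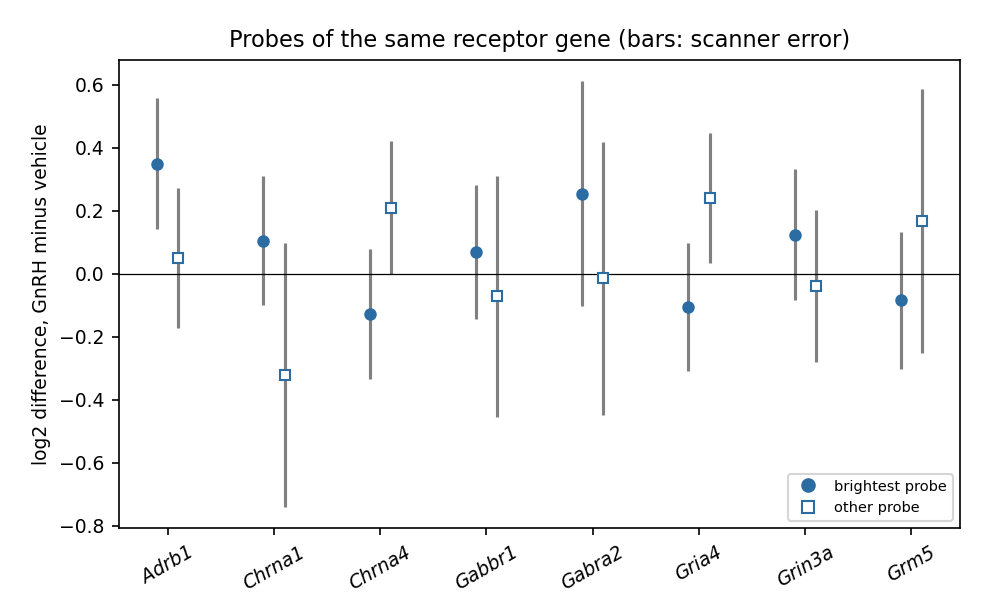
Log2 difference (y axis, GnRH minus vehicle) on each measured probe of 8 receptor genes with over 1 such probe (x axis); filled circles are the brightest probe, open squares the other, and bars the scanner error. The error bars of the probes of a gene overlap in each of the 8, and the widest gap shown is that of Chrna1, at 0.43.

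The partners of these receptors were read from 3 fixed lists. Of 34 proteins that anchor or assist receptors, 27 were measured on both arrays, with a median of -0.02 and a range from -0.21 to 0.33, and none reached 1.5-fold. The largest differences were those of Shank2, a scaffold of excitatory synapses (65.6 and 82.2, 0.33 ± 0.23), of Cacng8, an AMPA receptor partner (71.5 and 61.8, -0.21 ± 0.23), and of Ric3, a chaperone of nicotinic receptors (928 and 803, -0.21 ± 0.20). Of 29 genes of transmitter synthesis, transport and breakdown 19 were measured, with a median of -0.01 and none past 1.5-fold. Slc18a1, a vesicular monoamine transporter, had 96.6 and 124 (0.36 ± 0.22), and Slc32a1, the vesicular GABA transporter, had 69.8 and 56.6 (-0.30 ± 0.24).

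The dopamine transporter gene Slc6a3 was above background on the vehicle array only, with 31.1 and 3.66 and a bound of 2.07-fold. Its spot lay inside one of the stretches of spots that differed together. Of 25 genes of other transmitter receptors and channels, 16 were measured on both arrays, with a median of -0.03. One of the 16 was at least 1.5-fold higher, Grid1, a delta-type relative of the glutamate receptors, with 18.9 and 29.8 (0.66 ± 0.38), and none was lower. Oprd1, the delta opioid receptor, had 43.5 and 30.1 (-0.53 ± 0.29), and Glra3, a glycine receptor subunit, had 32.6 and 46.4 (0.51 ± 0.27). All 3 were dim, in the lowest band of signal, where 6.22% of all genes passed 1.5-fold.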

How the data were processed

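Total RNA of 1 vehicle and 1 GnRH sample was amplified, given the dye Cy3 and put on Agilent mouse arrays read in 1 colour, per the labels. The deposited scanner files hold linear spot intensity; per the file headers, Feature Extraction 10.7.1.1 had subtracted background and given each spot an error and marks for background and outliers, whereas version 9.5.1.1 stands in the submitters' processing notes. Probe positions are in mm9 as deposited. The authors' deposited value table, linear and with a median of 28.44 in each column, served as an alternative; its direction follows the scanner values (r = 0.998 between differences over 29665 probes), and its normalization is not given in the sources used here.

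Outlier spots were left out, 121 with vehicle and 94 with GnRH, none of them receptor spots. Log2 processed signals were averaged over the spots of a probe, and each array's 75th percentile (578 and 541) was subtracted. Well above background means that at least 50% of a probe's spots carried the software's mark, which 55.2% of spots did after vehicle and 56.9% after GnRH. No spot was saturated. A gene took its brightest probe above background on both arrays. The lowest signals well above background were 16.3 and, scaled, 15.0. Of 138 receptor probes 126 had a RefSeq transcript accession in the files.

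With 1 array per group nothing was tested, and genes were counted at 2-fold and 1.5-fold. The number of arrays limits the precision, and whether the samples were separate cultures is not given in the sources used here. The receptor genes, lists and alternatives were chosen with earlier results of these data known. Results of a few genes are not reported here. Named were the other measured members, Htr2a, Gabrr1 and their neighbours, Fos, Egr1, Gnrhr, and up to 3 genes of each partner list; other neighbours and Slc6a3 were chosen after their values were seen. The counting was tested on simulated data, made from the vehicle array with added spot noise. Of planted 2-fold changes 54% were called at 2-fold, and of planted 1.5-fold changes 48% at 1.5-fold. Planted 4-fold changes were all called at 2-fold. Changes of the size of a threshold were thus missed in part. Python 3.11.15, pandas 2.3.3, R 4.3.3 and limma 3.58.1 were used.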

Additional observations from a re-analysis of the deposited data

How the results depend on the processing

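The receptor genes were recomputed under 12 other settings. Without a filter on dim probes all 95 had a value, and 4 were at least 2-fold higher, 2 lower, and 5 and 6 past 1.5-fold in each direction; a stricter filter left 32, with fewer genes tested by its construction. A looser background mark gave 2 at least 2-fold higher, 2 past 1.5-fold higher and 3 lower, and 2 bounds on the GnRH array. With the stretches of co-differing spots left out, 0 genes were at least 2-fold or 1.5-fold lower and 0 bounds remained on either array. Relative to neighbouring spots 2 genes, Htr4 and Grin2b, were past 1.5-fold higher. The vehicle-only bound of 2-fold was lost, to 0, with normexp and without background correction. Class medians moved as follows. Metabotropic glutamate receptors went to 0.000836 without background correction, 0.0414 with the mean over probes and -0.00585 relative to neighbours. Muscarinic receptors went to 0.22 and nicotinic ones to -0.12 without the filter. The stricter filter gave -0.12 for nicotinic and -0.31 for dopamine receptors, and no value for muscarinic ones. Serotonin receptors went to 0.23 with the looser mark. Relative to neighbours, adrenergic receptors went to 0.30, anchoring proteins to 0.0514 and synthesis genes to 0.0587. Beyond what these constructions show, the cause was not tested. Gabrr1 ran from -2.06 to -1.43 where it had a value. Of 581 values of single members, 9 moved by more than their scanner error. No paired analysis was possible because each group had 1 array. Signals near background limit the dim receptors, and 1 array per group limits all.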

Other observations

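The start regions of the receptor genes were read for sites of factors that GnRH is known to induce or activate, from RefSeq promoters of GRCm38.p6 reaching 250 bases before to 50 after the start, on both strands. Of the 95 genes 69 had such a window, as did 27025 genes in all. The cyclic AMP response element TGACGTCA was in 0 of the 69 and in 2.03% of all. The AP-1 motif TGANTCA was in 6 (Adra1b, Chrna1, Grin3b, Grm8, Htr2b and Htr2c), or 8.7%, against 8.97% of all. Of the EGR motifs, GCGTGGGCG was in 1 (Htr7), against 0.707% of all, and GCGGGGGCG in 3 (Chrna7, Grin1 and Grm3), against 3.31%. A match describes the letters in the window and is no binding site. Of the genes with an AP-1 motif, 4 were measured, Adra1b at 0.16, Chrna1 at 0.10, Grin3b at 0.06 and Htr2c at 0.07. Each lay within its scanner error, and the dim other Chrna1 probe stood at -0.32 ± 0.42.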
